A study of Mus musculus with 10 samples.

Results

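The interleukin-1 (IL-1) family genes examined here were the 10 ligands and receptors of the IL-1, IL-18 and IL-33 axes, chosen by gene symbol from 24452 named genes counted in mouse skin. They comprised the agonist ligands *Il1a*, *Il1b*, *Il18* and *Il33*, the receptor antagonist *Il1rn*, the signalling receptors *Il1r1*, *Il18r1* and *Il1rl1*, the accessory chain *Il1rap* and the decoy receptor *Il1r2*. RNA was sequenced from full-thickness, non-tumoral back skin of WT and Zfp36ΔARE mice of the C57BL/6 strain, in 5 libraries per genotype. The sources used here call these quintuplicates without stating that each came from a separate mouse, so the p-values measure the spread between these libraries. All mice received 1 application of 400 nmol DMBA, a mutagen, at 7 weeks of age. From 1 week later both groups also received 10 nmol TPA, a phorbol ester that promotes tumors and inflames skin, in 2 applications a week for 20 weeks. In Zfp36ΔARE mice an AU-rich instability element was removed from the endogenous *Zfp36* gene, in every cell of the body and with no Cre or transgene, so that the mRNA of tristetraprolin (TTP) is more stable. TTP binds AU-rich elements in the 3′-UTR of other mRNAs and hastens their decay. Littermates served as controls. The zygosity and the sex of the mice are not stated either. The comparison asked which IL-1 family mRNAs differed when TTP was raised from its own locus in chronically stimulated skin.

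IL-1 family cytokines are alarm signals of barrier tissues. Keratinocytes hold IL-1α, IL-18 and IL-33 ready for release on injury, whereas IL-1β is made mainly by activated myeloid cells and, like IL-18, is cut to its active form by caspase-1 in inflammasomes. IL-1α and IL-1β act through IL-1R1 joined by the accessory chain IL1RAP, IL-33 acts through ST2, which *Il1rl1* encodes, joined by the same chain, and IL-18 acts through IL-18R1 with its own partner chain. Signalling is limited by IL-1Ra, the product of *Il1rn*, which occupies IL-1R1 without activating it, and by IL-1R2, which binds IL-1 but lacks a signalling domain.

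The members lie in clusters of the mm10 (GRCm38) genome. *Il1r2*, *Il1r1*, *Il1rl1* and *Il18r1* follow each other on the plus strand of chromosome 1, from 40074079 to 40500854, and the annotated end of *Il1rl1* is 136 bases before the start of *Il18r1*. *Il1a* (129299610 to 129309972) and *Il1b* (129364570 to 129371139) are on the minus strand of chromosome 2, and *Il1rn* (24336853 to 24351494) is on its plus strand. *Il18* is on chromosome 9 (50554827 to 50581840), *Il1rap* on chromosome 16 (26581704 to 26730117) and *Il33* on chromosome 19 (29925114 to 29960718).

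Because TTP recognises AU-rich elements, the annotated 3′-UTR of each member (GENCODE M21, longest principal transcript) was searched on the sense strand for ATTTA, the core pentamer, and TATTTAT, a longer form that contains it. *Il1b* held 4 pentamers and 3 heptamers in 459 bases. Among 1377 tested genes with a 3′-UTR within 20% of that length, 47% held at least 1 pentamer, 2.76% held at least 4, and 12.3% held a heptamer. *Il1a* held 3 pentamers and 3 heptamers in 1101 bases (at least 1 pentamer in 76%, at least 3 in 30.1% and a heptamer in 25.8% of 1980 genes of similar length), and *Il33* held 3 pentamers and no heptamer in 1677 bases (at least 1 pentamer in 86.7% and at least 3 in 47.9% of 2031). *Il18* had 1 pentamer in 123 bases (17.8% of 484). *Il1rn* had 0 of either motif in 1864 bases, where 89.1% of 2002 genes of similar length held a pentamer, and the annotated 3′-UTR of *Il1r2* was only 24 bases long and also held 0. The longer receptor 3′-UTRs held 8 pentamers in *Il1r1* (3864 bases) and *Il1rap* (2676 bases), 3 in *Il1rl1* (3246 bases) and 1 in *Il18r1* (2164 bases), where between 91.9% and 97.7% of genes of similar length held at least 1. As many pentamers were held by 36.8% of such genes for *Il1r1*, 19.0% for *Il1rap*, 78.6% for *Il1rl1* and 91.9% for *Il18r1*. Heptamers were found 3 times in *Il1rap*, 2 times each in *Il1r1* and *Il1rl1* and 0 times in *Il18r1* and *Il18*. They were thus not limited to the ligands. Of genes of similar length, a heptamer was held by 47.3% for *Il1rap*, 59.1% for *Il1r1* and 54.8% for *Il1rl1*. The share was 41.6% for *Il18r1* and 3.72% for *Il18*. The stretch richest in pentamers is printed below for the agonist ligands and for *Il1rl1*, since these members had the lowest fitted fold changes below, with each ATTTA in capitals and the rest in lower case. These are matches of letters and say nothing of binding in this tissue.
Il1b, chr2:129364803-129364832, minus strand: acttacctATTTATTTAtgtATTTAttgat
Il1a, chr2:129300103-129300132, minus strand: tctatgtATTTAtaaatatATTTAtgataa
Il33, chr19:29959666-29959695, plus strand: cttttaacacATTTAacATTTAactttaag
Il18, chr9:50581798-50581827, plus strand: ccgaggctgcatgATTTAtagagtaaacac
Il1rl1, chr1:40462418-40462447, plus strand: aattgattatcttATTTAtctacctttcaa

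Total counts ran from 21638400 to 32583217 per library in WT and from 19595035 to 36419573 in Zfp36ΔARE skin. *Zfp36* itself had 1824 to 2496 normalized counts in WT and 4196 to 6134 in Zfp36ΔARE libraries, where a normalized count is the count scaled by edgeR's TMM method to the mean library size. Zfp36ΔARE replicates 2 to 5 carried Y-linked counts and the other 6 libraries did not, so sex and genotype cannot be fully told apart. Summed hair shaft markers were at 101 and 598 CPM (counts scaled to a common library size) in WT replicates 3 and 1, at 2924 to 3905 in the other WT libraries and at 6160 to 17500 in Zfp36ΔARE libraries. Zfp36ΔARE replicate 4 had the highest sum of neutrophil markers, 713 CPM against 43.7 to 196 in the other 9 libraries, although *Ly6g*, a defining marker, had at most 3 counts in any library. That list includes *S100a8* and *S100a9*, at 6290 and 12000 normalized counts in this library and at most 1947 and 2836 in WT. The authors also found both mRNAs in sorted epidermal cells of other mice, so the sum does not stand for neutrophils alone. In these bulk samples, fewer cells of a type and less RNA per cell cannot be told apart.

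Corrected for gene length, *Il18* was the most abundant member in WT skin. Levels are given here as FPKM, which is CPM divided by the gene length in kilobases from the deposited table. In WT the mean level was 69.9 FPKM for *Il18*, 41.6 for *Il1r2*, 30.9 for *Il1rn*, 16.6 for *Il1r1*, 14.8 for *Il33* and 10.8 for *Il1a* (SD between 1.44 and 8.81, n = 5). The least abundant were *Il1rap* (4.28), *Il1b* (3.31), *Il18r1* (2.42) and *Il1rl1* (1.93). The 5 WT values of *Il18*, *Il1r2* and *Il1rn* did not overlap with those of the next gene down, nor did those of *Il1a* with *Il1rap*, while the neighbours among *Il1r1*, *Il33* and *Il1a*, and among *Il1rap*, *Il1b*, *Il18r1* and *Il1rl1*, overlapped. In Zfp36ΔARE skin the order was the same except that *Il18r1* (2.08 FPKM) stood above *Il1b* (1.49 FPKM), 2 genes whose values overlapped there, and *Il1r2* (33.7 FPKM) and *Il1rn* (33.6 FPKM) were nearly level. The decoy receptor thus had more fragments per kilobase than the signalling receptor *Il1r1* in both groups. Several of these genes have short and long transcripts, among them the soluble forms of ST2 and IL1RAP, which counts per gene cannot separate.

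**Figure D1:**
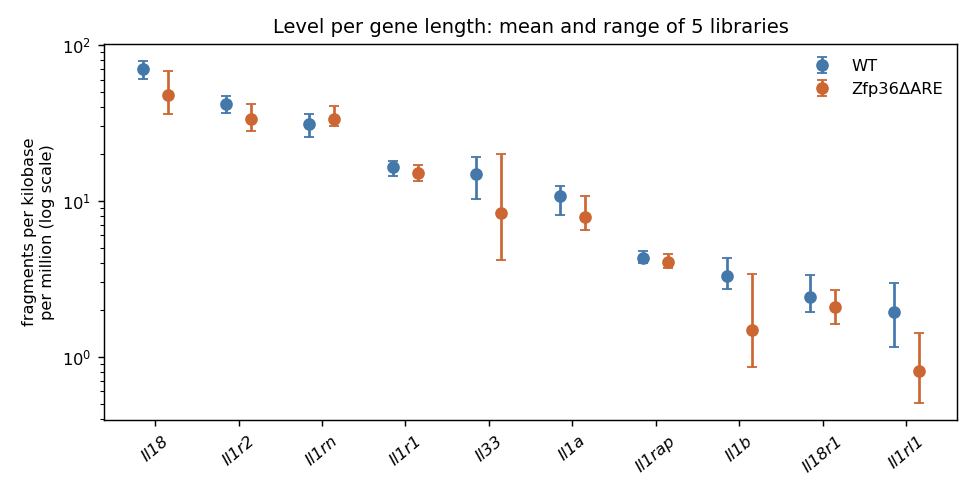
Level of each member in FPKM (log axis), ordered by the WT mean. Points are means of 5 libraries per group and bars run from the lowest to the highest library; *Il18* is highest and *Il1rl1* lowest in both groups, and the ranges of *Il33* and *Il1b* widen in Zfp36ΔARE skin.

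All 10 members passed the filter on low counts and were tested. *Il1rl1*, *Il1b* and *Il18* fell in Zfp36ΔARE skin and 0 members rose, taking as a pass an adjusted p under 0.05 (quasi-likelihood test of edgeR, adjusted by Benjamini and Hochberg over 15543 genes). Over all tested genes 19.1% fell and 15.3% rose by the same rule, 34.3% in all, so the 3 of 10 members that passed are close to the share of all genes. *Il1rl1* and *Il1b* also had a fold change over 2, as did 6.64% of all tested genes in that direction, 1.67% in the other and 8.31% in all. The fitted log2 fold change was below 0 in 9 of 10 members, with a median of -0.37 against 0.008 over all tested genes. The share of all tested genes with a fold change below 0 was not counted. An unadjusted edgeR p below 0.05 was found in 5 of 10 members and in 7323 of 15543 tested genes, a similar share. In 0 of 10 members did the 5 values of one group all lie below those of the other, against 11.9% of tested genes with all Zfp36ΔARE values lower and 11.2% with all higher (23.1% in all).

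**Figure D2:**
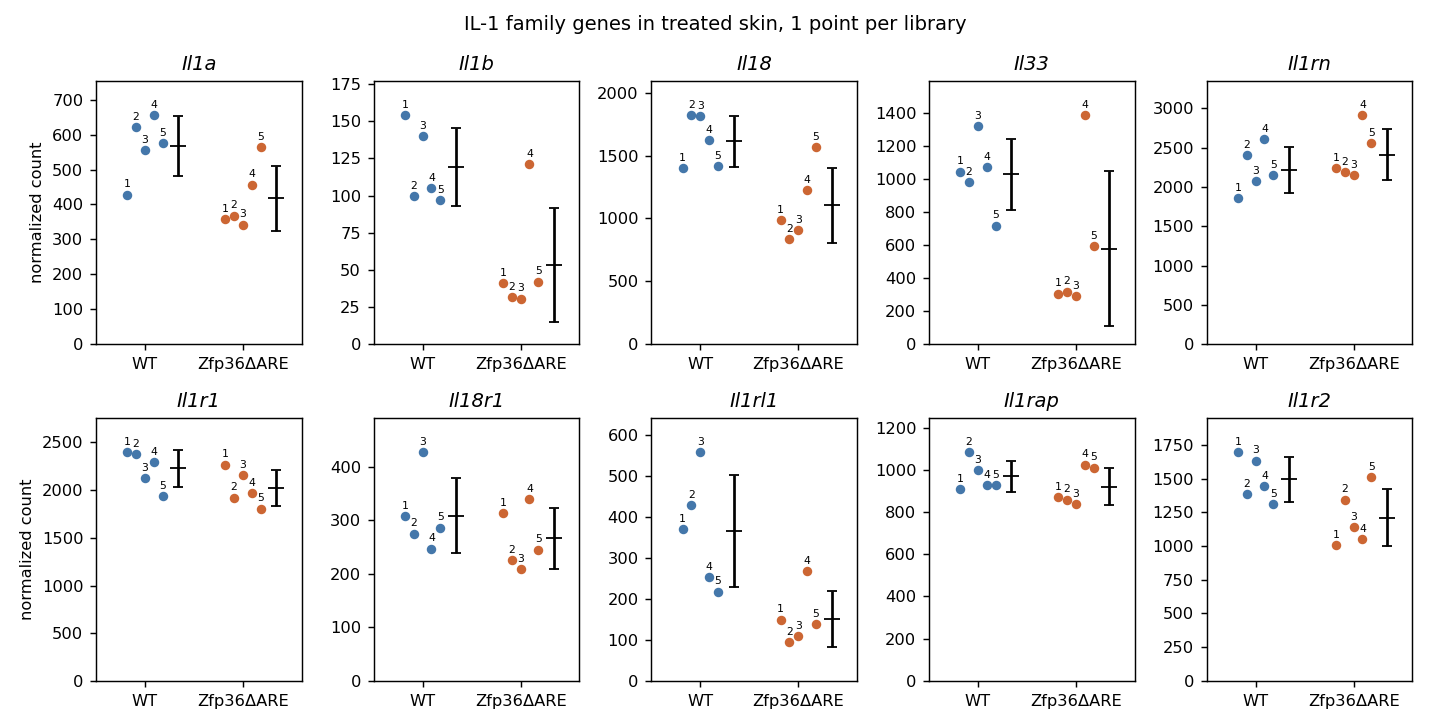
Normalized counts of the 10 members in each library, with the replicate number beside each point and the mean and SD of 5 libraries at the right of each group. In *Il1b*, *Il33*, *Il18* and *Il1rl1*, 4 of 5 Zfp36ΔARE libraries lie below all WT libraries, with replicate 4 the exception in all but *Il18*.

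**Figure D3:**
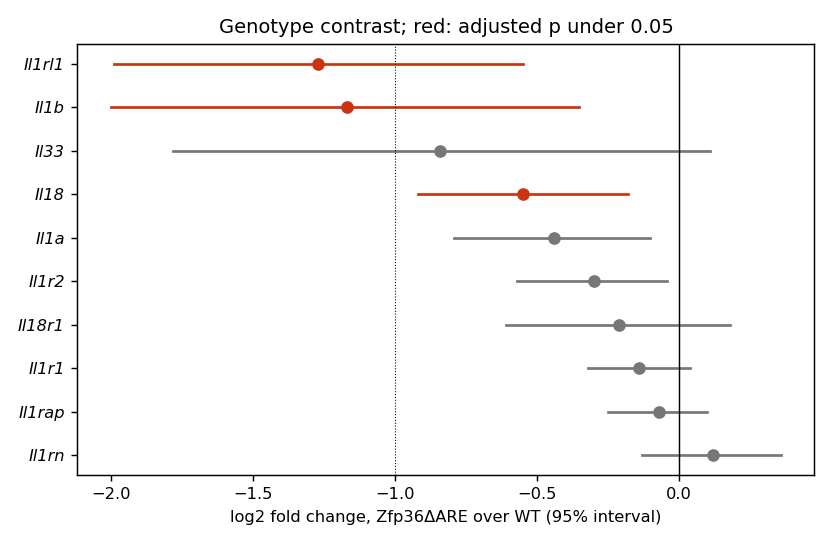
Fitted log2 fold change of each member, Zfp36ΔARE over WT, with its 95% interval (lines) from edgeR's quasi-likelihood fit of 5 against 5 libraries; the dotted line marks a fold of 2. The members in red, *Il1rl1*, *Il1b* and *Il18*, had an adjusted p below 0.05, and the intervals of *Il1a* and *Il1r2* also lie below 0 without passing the adjustment.

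*Il1b*, the secreted inflammatory agonist, had few fragments. Its normalized counts were 154, 99.4, 140, 105 and 97.0 in WT replicates 1 to 5, and 41.2, 31.7, 30.7, 121 and 42.2 in Zfp36ΔARE replicates 1 to 5. All Zfp36ΔARE libraries but replicate 4, which lay within the WT range, were below every WT library. The means were 119 ± 26.2 in WT and 53.5 ± 38.4 in Zfp36ΔARE skin (SD, n = 5 each), a 2.26-fold decrease (log2 fold change -1.17, standard error 0.37, edgeR adjusted p = 0.0342). Without Zfp36ΔARE replicate 4 the log2 fold change was -1.71 (edgeR adjusted p = 0.00792), and without WT replicates 1 and 3, the libraries with little hair RNA, it was -0.93 (edgeR adjusted p = 0.162). Leaving out WT replicate 1 or 3, or Zfp36ΔARE replicate 1, 2, 3 or 5, also ended the call, at log2 fold changes of -1.11 to -1.03 and adjusted p of 0.063 to 0.078. Macrophage markers, a myeloid source of IL-1β, fell in 11 of 12 genes, with summed levels of 990 to 1948 CPM in WT and 434 to 665 CPM in Zfp36ΔARE libraries. Their part in the decrease of *Il1b* was not tested.

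*Il1a*, the other ligand of IL-1R1 and a product of keratinocytes, had 428, 621, 555, 655 and 576 normalized counts in WT replicates 1 to 5. In Zfp36ΔARE replicates 1 to 5 it had 357, 368, 342, 457 and 564. Replicates 1 to 3 of the Zfp36ΔARE group were below all WT libraries, and replicates 4 and 5 were within the WT range. The mean was 567 ± 86.8 in WT and 418 ± 93.5 in Zfp36ΔARE skin (SD, n = 5 each). Its log2 fold change was -0.44 (95% interval -0.79 to -0.10, edgeR adjusted p = 0.0505), just outside the threshold. It passed with DESeq2 (-0.44, adjusted p = 0.0259), which passed 41.4% of all tested genes against 34.3% in the main fit. Among all alternative settings *Il1a* passed in 7 and did not pass in 14. With 1 library left out its log2 fold change ran from -0.58 to -0.38 and its edgeR adjusted p from 0.0166 to 0.111.

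*Il18*, the cytokine that promotes interferon-γ production, had 1402, 1820, 1812, 1624 and 1417 normalized counts in WT replicates 1 to 5, and 985, 834, 907, 1227 and 1567 in Zfp36ΔARE replicates 1 to 5. Only Zfp36ΔARE replicate 5 reached the WT range. The mean fell from 1615 ± 204 to 1104 ± 298 (SD, n = 5 each), 1.46-fold (log2 fold change -0.55, standard error 0.17, edgeR adjusted p = 0.0292). Leaving out WT replicate 2 or 3, or Zfp36ΔARE replicate 1, 2 or 3, ended the call, with log2 fold changes of -0.51 to -0.46 and adjusted p of 0.056 to 0.069, as did leaving out WT replicates 1 and 3 together (-0.56, edgeR adjusted p = 0.092). Suprabasal keratinocyte markers summed to 12350 to 18270 CPM in WT, to 7601 to 8399 CPM in Zfp36ΔARE replicates 1 to 3, and to 16660 and 16350 CPM in replicates 4 and 5. Of their 7 tested genes, 1 fell and 1 rose, and their part in the values of *Il18* and *Il1a* was not tested.

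*Il33*, a nuclear alarmin of keratinocytes and stromal cells, was the most variable member in Zfp36ΔARE skin. It had 1045, 983, 1323, 1074 and 718 normalized counts in WT replicates 1 to 5, and 307, 318, 290, 1386 and 595 in Zfp36ΔARE replicates 1 to 5. Replicate 4 of the Zfp36ΔARE group was the highest of all 10 libraries, and the other 4 were below every WT library. With all libraries the log2 fold change was -0.84 (95% interval -1.78 to 0.11, edgeR adjusted p = 0.144), which did not pass. Without Zfp36ΔARE replicate 4 it was -1.45 (standard error 0.25, edgeR adjusted p = 0.00888), so 1 library decided this value. limma-voom called the gene with all libraries kept (-1.19, adjusted p = 0.0276).

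The antagonist gene *Il1rn* did not pass, and its mean was not lower in Zfp36ΔARE skin. It had 1855, 2404, 2080, 2605 and 2153 normalized counts in WT replicates 1 to 5, and 2236, 2186, 2153, 2912 and 2561 in Zfp36ΔARE replicates 1 to 5. The groups overlapped, and replicate 4 of the Zfp36ΔARE group was the highest library. The log2 fold change was 0.12 (95% interval -0.13 to 0.36, edgeR adjusted p = 0.417), so a decrease of the size fitted for *Il18* lay outside the interval.

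Among the receptors, *Il1rl1* had the largest fitted difference. ST2, its product, is carried by mast cells, innate lymphoid cells and regulatory T cells, among others. Normalized counts were 370, 430, 559, 254 and 218 in WT replicates 1 to 5, and 150, 95.1, 110, 268 and 138 in Zfp36ΔARE replicates 1 to 5. Again replicate 4 of the Zfp36ΔARE group was within the WT range and the other 4 were below it. The mean was 366 ± 138 in WT and 152 ± 68.5 in Zfp36ΔARE skin (SD, n = 5 each), 2.41-fold lower (log2 fold change -1.27, standard error 0.33, edgeR adjusted p = 0.0166). The call held with each library left out in turn (adjusted p of 0.00944 to 0.0411) but not without WT replicates 1 and 3 together (-0.99, edgeR adjusted p = 0.0834). Of 10 mast cell markers 8 fell and 1 rose, with summed levels of 238 to 591 CPM in WT and 132 to 169 CPM in Zfp36ΔARE libraries without overlap. Of 7 tested T cell markers 1 fell, with sums of 175 to 254 and 91.0 to 135 CPM. The part of either cell type in the *Il1rl1* decrease was not tested.

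The other signalling chains did not pass. *Il1r1* had 2399, 2380, 2127, 2291 and 1939 normalized counts in WT replicates 1 to 5, and 2268, 1921, 2160, 1965 and 1807 in Zfp36ΔARE replicates 1 to 5, a log2 fold change of -0.14 (95% interval -0.32 to 0.04, edgeR adjusted p = 0.2). *Il18r1*, the IL-18-binding chain, had 247 to 427 (median 286) in WT and 208 to 339 (median 245) in Zfp36ΔARE libraries, a log2 fold change of -0.21 (-0.61 to 0.18, edgeR adjusted p = 0.369). *Il1rap*, the chain shared by the IL-1 and IL-33 receptors, had 910 to 1084 in WT and 838 to 1025 in Zfp36ΔARE libraries, a log2 fold change of -0.07 (-0.25 to 0.10, edgeR adjusted p = 0.481). The interval of *Il18r1* was the widest of these 3 receptor chains. *Il1r2*, the decoy, had 1696, 1382, 1633, 1446 and 1309 normalized counts in WT replicates 1 to 5, and 1008, 1343, 1141, 1051 and 1509 in Zfp36ΔARE replicates 1 to 5. Of the Zfp36ΔARE libraries 3 were below all WT libraries, and its log2 fold change of -0.30 (-0.57 to -0.04) did not pass after adjustment (edgeR adjusted p = 0.0711).

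The same Zfp36ΔARE libraries were often highest or lowest across the family. Within that group 6 of 10 members were highest in replicate 4, 3 in replicate 5 and 1 in replicate 1, and 6 were lowest in replicate 3. Replicate 1, the Zfp36ΔARE library without Y-linked counts, was below all WT libraries in 7 members (*Il1a*, *Il1b*, *Il18*, *Il33*, *Il1rl1*, *Il1rap* and *Il1r2*). The share of all tested genes with the same patterns was not counted, so these counts describe the libraries and are not shown to be particular to the family. A fit of the 5 WT libraries against this library alone, which assumes that a lone library varies as the WT group does, gave log2 fold changes of -1.74 for *Il33*, -1.52 for *Il1b*, -1.28 for *Il1rl1*, -0.71 for *Il18*, -0.67 for *Il1a* and -0.56 for *Il1r2*, and of -0.15 to 0.03 for the other 4, but passed 0 members and 0 of 16373 genes (2572 at an unadjusted p below 0.05).

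Ratios between members within a library depend on library scaling only through the pseudocount of 0.5 CPM, and 6 were examined with the two-sided exact permutation test, adjusted over the 6 by Benjamini and Hochberg. The log2 ratio of antagonist to agonist, *Il1rn*/*Il1a*, was 2.08, 1.93, 1.88, 1.97 and 1.88 in WT replicates 1 to 5. It was 2.60, 2.53, 2.61, 2.64 and 2.16 in Zfp36ΔARE replicates 1 to 5. All Zfp36ΔARE libraries were above all WT libraries, by 0.56 on average (exact permutation p = 0.00794, adjusted p = 0.0476), where this p is the smallest that 5 against 5 allow. *Il1rn*/*Il1b* was 4.09 ± 0.44 in WT and 5.31 ± 0.50 in Zfp36ΔARE libraries (SD, n = 5 each), higher by 1.23 (exact permutation p = 0.0159, adjusted p = 0.0476), with Zfp36ΔARE replicate 4 inside the WT range. *Il1rl1*/*Il1r1* was -2.63 ± 0.50 and -3.70 ± 0.55, lower by 1.07 (exact permutation p = 0.0238, adjusted p = 0.0476), again with Zfp36ΔARE replicate 4 (-2.81) inside the WT range. The decoy-to-receptor ratio *Il1r2*/*Il1r1* (difference -0.17, exact permutation p = 0.365), *Il18r1*/*Il18* (0.37, exact permutation p = 0.135) and *Il1rl1*/*Il33* (-0.13, exact permutation p = 0.651) did not pass. How often ratios of other gene pairs pass or separate the groups was not counted. The ratios that passed are therefore not shown to be particular to the family. Among single tested genes, 23.1% did not overlap between the groups in either direction. *Il1rl1* and *Il33* were both low in Zfp36ΔARE replicates 1 to 3, and their ratio ran from -2.02 to -1.17 in WT and from -2.31 to -0.97 in Zfp36ΔARE libraries. With 1 library left out the 3 adjusted p-values ran from 0.0317, without Zfp36ΔARE replicate 4, to 0.0952, without WT replicate 1, 2 or 3 or Zfp36ΔARE replicate 1, 2 or 3, in a design of 4 against 5 whose smallest unadjusted p is 0.0159.

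**Figure D4:**
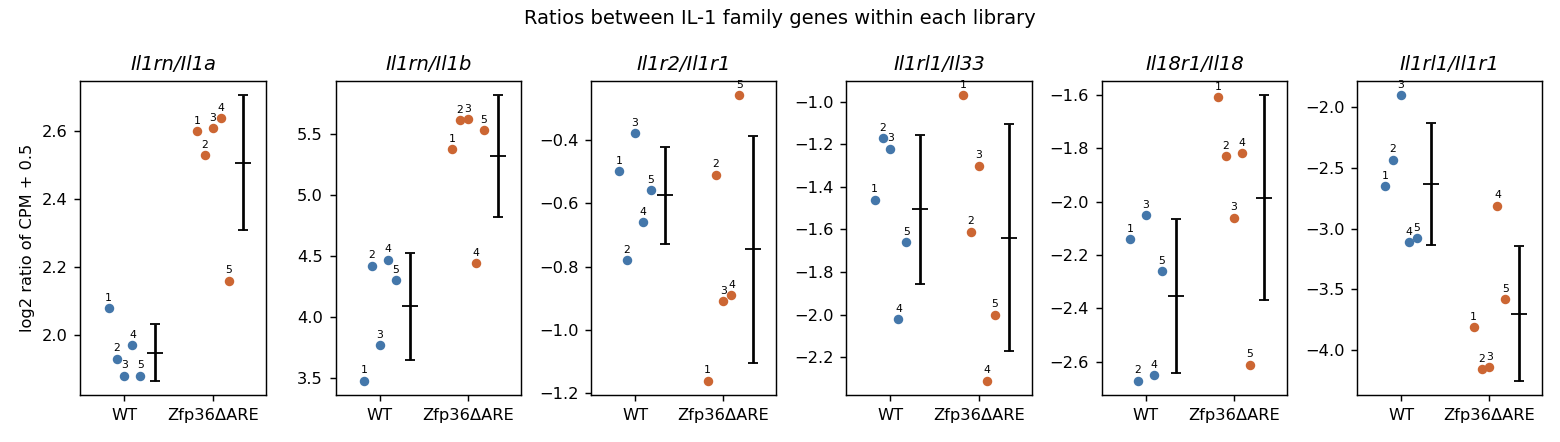
Log2 ratio of CPM + 0.5 between pairs of members in each library (replicate numbers beside the points; mean and SD of 5 libraries at the right of each group; each panel has its own axis). *Il1rn*/*Il1a* separates the groups without overlap, while the ranges of *Il1rl1*/*Il33* overlap, with the Zfp36ΔARE range wider at both ends.

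Of 5 further ligands of the family 1 rose and 0 fell, beside 15.3% and 19.1% of all tested genes, with a median log2 fold change of -0.29. *Il1f10*, which encodes IL-38, rose (log2 fold change 1.57, standard error 0.36, edgeR adjusted p = 0.013), from 108, 257, 86.6, 402 and 253 normalized counts in WT replicates 1 to 5 to 754, 620, 782, 612 and 516 in Zfp36ΔARE replicates 1 to 5. All Zfp36ΔARE libraries were above all WT libraries, and the lowest WT values were in replicates 3 and 1, the libraries with little hair RNA. The part of hair content in this difference was not tested. The IL-36 ligands *Il1f6*, *Il1f8* and *Il1f9* and the IL-36 receptor antagonist *Il1f5* did not pass (log2 fold changes of -0.55 to 0.01). *Il1f5*, with the most counts of these, was at 4080 to 5435 normalized counts in WT, at 2747 to 2799 in Zfp36ΔARE replicates 1 to 3, and at 6250 and 5613 in replicates 4 and 5. Of 4 further receptors and binding proteins tested, 2 fell and 0 rose (median -0.39), beside 19.1% and 15.3% of all tested genes. The IL-36 receptor gene *Il1rl2* fell from 1708 ± 117 to 1320 ± 148 (SD, n = 5 each; log2 fold change -0.37, edgeR adjusted p = 0.011) and *Sigirr*, an inhibitory receptor, fell by 0.42 on the log2 scale (edgeR adjusted p = 0.043), while *Il18rap*, the partner chain of IL-18R1, was at -0.73 (edgeR adjusted p = 0.055) and *Il18bp*, the soluble IL-18 inhibitor, at -0.05.

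Genes for the processing and release of IL-1 family cytokines fell in 11 of 18 tested and rose in 0, beside 19.1% and 15.3% of all tested genes, with a median log2 fold change of -0.41. Macrophage markers, which fell in 11 of 12 genes, summed to 1948, 1795, 1850, 1169 and 990 CPM in WT replicates 1 to 5 and to 434 to 665 CPM in Zfp36ΔARE libraries, and their part in the values of this list was not tested. *Gsdmd*, whose product forms the pores through which mature IL-1β leaves the cell, was at 733, 586, 694, 429 and 437 normalized counts in WT replicates 1 to 5 and at 307, 242, 227, 318 and 276 in Zfp36ΔARE replicates 1 to 5, without overlap (log2 fold change -1.07, edgeR adjusted p = 0.0052). The inflammasome sensors *Nlrp3* and *Nlrc4* both had a log2 fold change of -1.58 (edgeR adjusted p = 0.019 and 0.0074), from 72.3 ± 26.9 to 24.5 ± 15.1 and from 51.7 ± 17.2 to 17.3 ± 5.10 normalized counts (SD, n = 5 each). *Casp1*, which cuts pro-IL-1β and pro-IL-18, fell from 1412 ± 206 to 1047 ± 155 (-0.43, edgeR adjusted p = 0.023), and *Casp4*, *Casp8*, *Capn2* and *Nlrp1a* fell by 0.33 to 0.78 on the log2 scale. *Cma1* and *Mcpt4*, mast cell proteases able to cut these cytokines and themselves mast cell markers, were at -1.74 and -1.71 (edgeR adjusted p = 0.0054 and 0.0047). The adaptor *Pycard* was at -0.13, and *Capn1*, the calpain with the most counts of this list, was at 0.01.

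Of 19 genes between the receptors and NF-κB, 2 fell and 2 rose, beside 19.1% and 15.3% of all tested genes, and the median log2 fold change was 0.04. *Irak3*, an inhibitor of this pathway, fell from 1005 ± 108 to 675 ± 124 normalized counts (SD, n = 5 each; -0.58, edgeR adjusted p = 0.011) and the kinase gene *Irak2* fell by 0.36 on the log2 scale, whereas the ligase gene *Peli1* (0.28, edgeR adjusted p = 0.027) and the kinase gene *Map3k7* (0.19, edgeR adjusted p = 0.047) rose. *Myd88*, the adaptor of the signalling receptors, was at 0.03, and *Tab2*, with the most counts, at 0.08.

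Of 17 tested genes that IL-1 signalling is known to induce, 7 fell and 0 rose (median log2 fold change -0.49), beside 19.1% and 15.3% of all tested genes. Endothelial markers (10 of 10 lower, 276 to 577 CPM in WT and 167 to 231 CPM in Zfp36ΔARE libraries) and the macrophage markers above fell in the same libraries, and their part was not tested. The genes that fell were the chemokine genes *Cxcl2* (-2.70), *Cxcl5* (-1.65), *Ccl20* (-1.37) and *Ccl2* (-0.66), the adhesion molecule genes *Vcam1* (-0.82) and *Icam1* (-0.51), and *Nfkbia* (-0.49), the inhibitor of NF-κB, with edgeR adjusted p of 0.0074 to 0.037. *Cxcl2* and *Cxcl5* rested on at most 15 counts in any Zfp36ΔARE library. *S100a9*, an alarmin subunit, had the most counts of this list over all 10 libraries, though not in WT alone, where *Nfkbia*, *Zc3h12a* and *Nfkbiz* had more. It was at 894, 1999, 438, 2750 and 2836 normalized counts in WT replicates 1 to 5 and at 559, 457, 403, 12000 and 2281 in Zfp36ΔARE replicates 1 to 5, a log2 fold change of 0.81 that did not pass (edgeR adjusted p = 0.54) and in which replicate 4 again stood highest. Of 6 tested genes downstream of IL-33 and IL-18, *Csf1* (-0.83) and *Ccl24* (-0.93) fell and *Gata3*, a transcription factor of type 2 lymphocytes that hair follicles also express, rose from 3037 ± 529 to 4315 ± 356 normalized counts (SD, n = 5 each; 0.51, edgeR adjusted p = 0.012). *Il4*, *Il5*, *Il13* and *Ifng*, their classical cytokine targets, had too few counts to be tested. Of these only *Ifng* did not overlap, at 5.16 to 7.37 normalized counts in WT and 8.15 to 15.8 in Zfp36ΔARE libraries. It had at most 12 counts in any Zfp36ΔARE library, and 11.2% of tested genes had all Zfp36ΔARE values higher. In all, 24 of the 69 tested pathway genes fell and 4 rose, beside 19.1% and 15.3% of all tested genes.

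**Figure D5:**
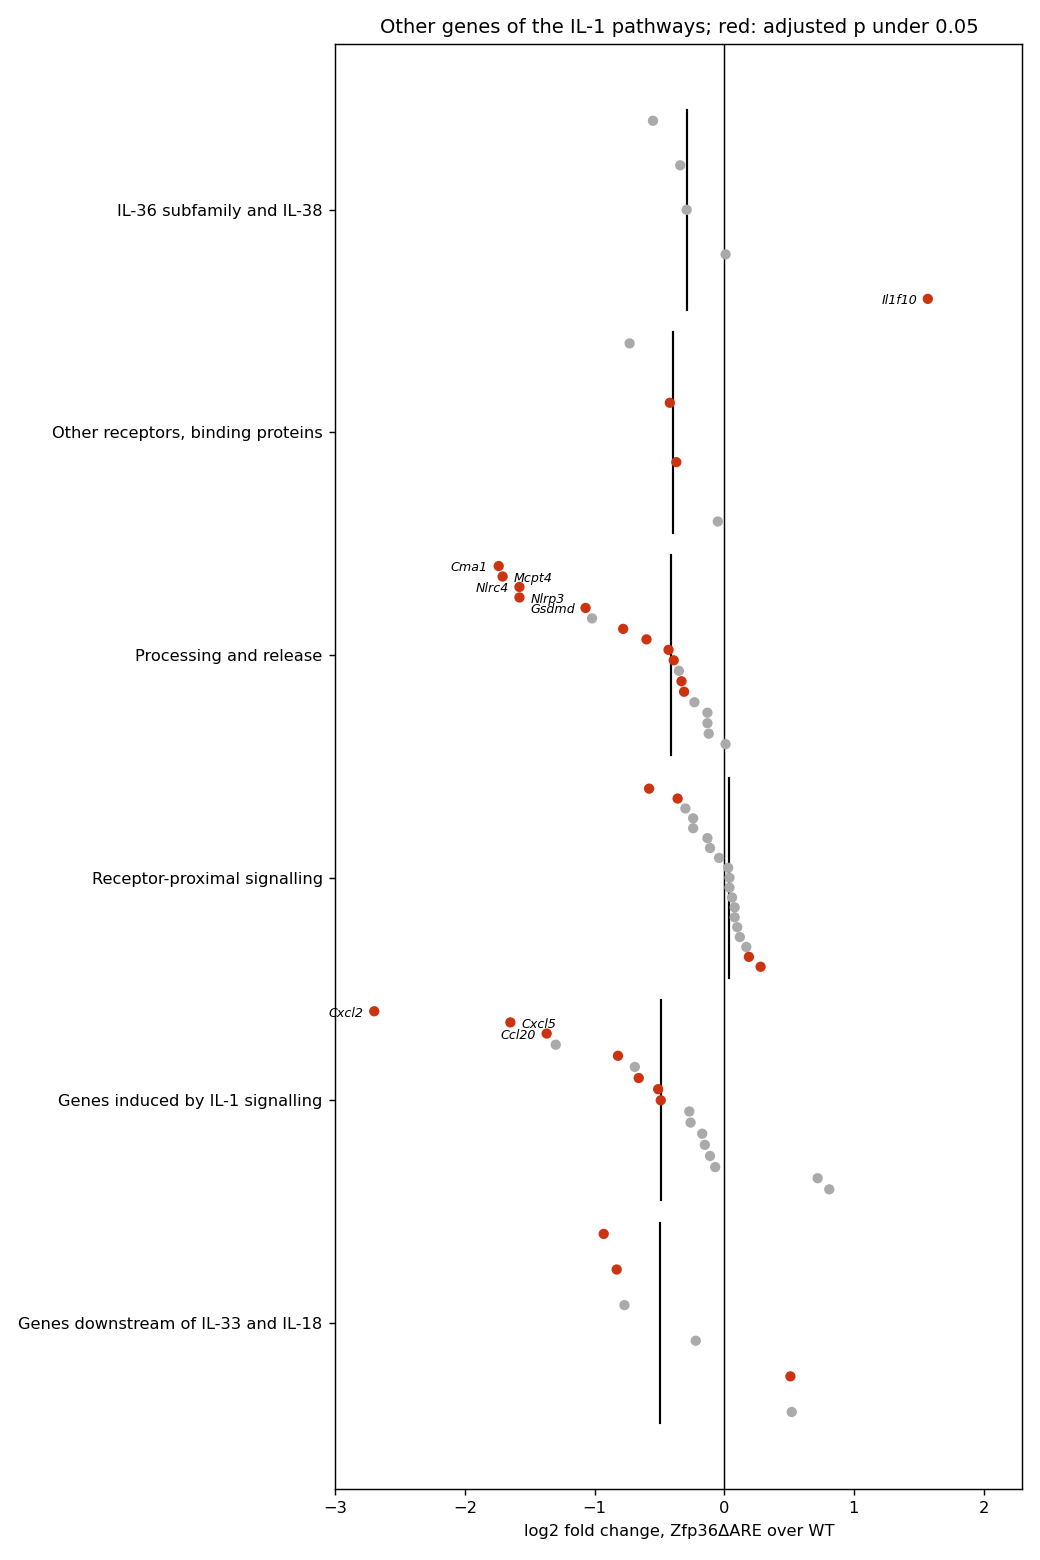
Fitted log2 fold change, Zfp36ΔARE over WT, of each tested gene in 6 lists of IL-1 pathway genes; black bars are list medians, red points had an edgeR adjusted p below 0.05, and genes that also passed a fold of 2 are named. Red points lie mostly left of 0 for processing and induced genes and on both sides for receptor-proximal signalling.

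For each member, the tested gene with the most similar values was found among 14440 genes with a mean of at least 1 CPM, by Pearson's r of log2(CPM + 0.5) over the 10 libraries after the mean of each group was subtracted. These were *Cr1l* for *Il1rl1* (0.984), *Uqcc2* for *Il1b* (0.949), *Sptssa* for *Il18* (0.956), *Wdr91* for *Il33* (0.975), *Stx12* for *Il1a* (0.942), *Tmem50b* for *Il1rn* (0.975), *Zfp518a* for *Il1r1* (0.905), *Rinl* for *Il18r1* (0.974), *Sdr16c6* for *Il1rap* (0.979) and *Crispld1* for *Il1r2* (0.930). Each is the highest of many values over few libraries that share depth and tissue content, and serves as a description. Without Zfp36ΔARE replicate 4 the value for *Il1b* and *Uqcc2* was 0.761, and the others were between 0.928 and 0.977.

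The other cell markers measured in the same libraries differed as follows. Beside these marker counts, and those given above, 19.1% of all tested genes fell and 15.3% rose. Langerhans and dendritic cell markers fell in 8 of 10 genes (1505 to 2572 CPM summed in WT, 856 to 1283 in Zfp36ΔARE), endothelial markers in 10 of 10 (276 to 577 and 167 to 231), fibroblast markers in 7 of 10 (6481 to 13620 and 3670 to 10170), skeletal muscle markers in 9 of 10 (9756 to 47460 and 5682 to 12160) and adipocyte markers in 7 of 9 (1802 to 3758 and 1261 to 1699). Of 5 tested neutrophil markers 1 fell, of 7 basal keratinocyte markers 2 fell (8012 to 12470 and 6844 to 13260 CPM), and of 12 hair shaft markers 4 rose. Their part in the members' values was not tested.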

How the data were processed

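Skin RNA of WT and Zfp36ΔARE mice was sequenced in 5 paired-end libraries per genotype. The authors discarded reads of poor average quality, mapped those left with STAR 2.5.2b (build mm10), counted fragments per gene with featureCounts (Subread 1.5.0-p1) and deposited raw counts in 24454 rows, with a length per gene in bases. How fragments matching several genes were handled and whether strand was used is not given in the sources used here, so overlap between adjacent genes such as *Il1rl1* and *Il18r1* cannot be judged. The 2 rows without a gene name were left out (at most 0.000143% of a library's counts).

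TMM factors were computed with edgeR 4.0.16 (R 4.3.3), filterByExpr was applied, and the counts were used to test Zfp36ΔARE against WT over 15543 genes with the quasi-likelihood test (robust dispersions, genotype as the only term, Benjamini-Hochberg adjustment). The pass was an adjusted p under 0.05, and a fold over 2 the stricter call. Ratios used log2(CPM + 0.5). Alternatives used DESeq2 1.42.0, limma 3.58.1 (voom), other scaling and filters, glmTreat, a replicate block and left-out libraries. Members were given by symbol, and pathway genes were named if called (at most 4 per list) or of most counts, plus others singled out after their values were seen. The members and lists were chosen with earlier results of these data known. Labels do not say that shared replicate numbers pair mice. The model was tested on simulated data. Annotation was GENCODE M21 on GRCm38.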

Additional observations from a re-analysis of the deposited data

Results flagged for a closer look

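In 60 groups of 5 libraries (the members, the pathway genes named by rule and the ratios), a library far from the rest of its group was found 7 times, where chance gives about 3 (1 in 20 groups). In Zfp36ΔARE replicate 4, *Il1b* was at 121 normalized counts against 30.7 to 42.2 in the other 4 libraries (gap 0.874 of the group's range). *Il33* was at 1386 against 290 to 595 (0.722), *S100a9* at 12000 against 403 to 2281 (0.838) and *Cxcl5* at 9.35 against 3.62 to 5.27 (0.711) in the same library. Its *Il1rn*/*Il1b* log2 ratio was 4.44 against 5.37 to 5.62 (0.785). In Zfp36ΔARE replicate 5 the *Il1rn*/*Il1a* log2 ratio was 2.16 against 2.53 to 2.64 (0.769). In WT replicate 1, *Cxcl5* was at 25.8 normalized counts against 12.1 to 15.5 (0.75).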

How the results depend on the processing

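The 3 members lower at an adjusted p under 0.05 became 5 with limma-voom (*Il1a* and *Il33* added), 1 without WT replicates 1 and 3 together (*Il1a*), 1 with a replicate block (*Il1b*), and 0 with glmTreat against a fold of 2 or in the libraries without Y-linked counts (0 and 5 at an unadjusted p under 0.05), settings that passed 0 genes in the whole table and so say nothing of the members. With 1 library left out they were 1 to 4. The 2 members with a fold over 2 became 1 with the replicate block, 0 with glmTreat, 0 without WT replicates 1 and 3, 0 without the Y-linked libraries, and 1 to 3 with 1 library left out. In the settings with each library kept, other scaling or filters left both counts within 1.5 times, and 0 members rose in any setting. The 24 pathway genes that fell became 12 with the block, 11 without WT replicates 1 and 3 and 0 without the Y-linked libraries, and 17 to 29 with 1 library left out. The 4 that rose became 2, 2 and 0, and 2 to 4. Over all genes, 34.3% passed in the main fit, 34.5% with limma-voom, 17.6% with the block and 15.9% without WT replicates 1 and 3. The share was 21.3% to 34.3% with 1 library left out, so calls were also lost over the whole table. Same-numbered libraries did not deviate together (correlations of -0.19 to 0.0859). In the libraries without Y-linked counts, *Il1r1* (0.03) and *Il18r1* (0.03) changed sign within error. Ratios kept their side with a pseudocount of 0.1, where *Il1rn*/*Il1b* was 1.41. Paired by number, where the smallest exact p is 0.0625, *Il1rn*/*Il1a* (0.56), *Il1rn*/*Il1b* (1.23) and *Il1rl1*/*Il1r1* (-1.07) had adjusted p of 0.25. Without WT replicates 1 and 3 they were 0.58, 0.92 and -0.83 (adjusted p of 0.143 to 0.161), and with 1 library left out 0.53 to 0.65, 1.07 to 1.44 and -1.29 to -0.88. *Il1rl1*/*Il33* ran from -0.30 to 0.04, above 0 without Zfp36ΔARE replicate 4. The cause of these changes was not tested, except that fewer libraries or a block leave fewer degrees of freedom.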
